A study of Zea mays with 10 samples.

Results

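The yellow stripe-like gene ysl12 (GeneID:100505456) and the potassium transporter gene HAK21 (GeneID:103643618) of maize were followed through 10 libraries of nuclear RNA. They are 2 of the 48174 genes in the count table, read from it by their identifiers. Both were chosen by their fold change between captured and total nuclear RNA in these same libraries, which was among the highest of the genes with a name, so that difference is described here without a test. Nuclei were taken from root tips, the outermost 1 mm of primary as well as seminal roots, of 3-day-old seedlings of the inbred line B73. In 5 EU nascent libraries, RNA made during 1 h in 175 uM 5-ethynyl uridine (EU), a uridine analog, was biotinylated and pulled down on streptavidin, while 5 nuclear libraries held total nuclear RNA with no pulldown. All 10 libraries, the nuclear ones included, came from B73 tissue kept in water for 1 h and then given EU. A capture from tissue without EU was not analysed here, so RNA that sticks to the beads without label was not measured. The comparison asks how a profile of RNA made in the labelling period relates to the RNA present in the nucleus.

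Yellow stripe-like (YSL) proteins are membrane transporters that move iron and other metals bound to nicotianamine or to phytosiderophores, the chelators that grasses secrete to dissolve soil iron. The founding member, maize YS1, takes up iron bound to phytosiderophores at the root surface, and other members move metals inside the plant. Proteins of the HAK/KUP/KT family carry potassium into cells, in symport with protons where this has been worked out, and serve uptake from soil, distribution between tissues and turgor of growing cells. The rice protein OsHAK21 is known for potassium and sodium balance under salt. A nuclear RNA level reflects both synthesis and the time a transcript stays in the nucleus, whereas captured RNA is enriched for recent synthesis.

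EU nascent libraries held 2391209 to 5770915 assigned counts and nuclear libraries 1323450 to 20397606. Levels are given as CPM, the counts of a gene per 1000000 counts of its library after trimmed-mean scaling between libraries. Of the 48174 genes, 21048 had enough counts to be tested. Of 6 root tip marker genes, 4 were tested, among them both PCNA genes of DNA replication and SCR, and their summed level was 165 to 198 CPM in EU nascent and 209 to 281 CPM in nuclear libraries. Within this sum the histone gene H4C13 had 62.0 ± 5.18 CPM in EU nascent and 133 ± 22.8 CPM in nuclear libraries (SD, n = 5), and PCNA had 46.6 ± 5.23 CPM in EU nascent and 38.0 ± 2.92 CPM in nuclear libraries. By edgeR's test PCNA was called higher and pcna2 and H4C13 lower, where 19.8% of all tested genes were higher and 21.1% lower, and the call was kept by PCNA in 14, by pcna2 in 11 and by H4C13 in 19 of 19 alternative settings. A list meant for later root tissue was matched by name, so it can hold expansin genes of other tissues. Of its 17 root hair and expansin genes, 9 were tested, 4 were called higher and 2 lower. The summed level of the 17 was 402 to 531 CPM in EU nascent and 404 to 507 CPM in nuclear libraries. Of these, expA4 had the highest called log2 fold change, 0.93 ± 0.21 (SE; edgeR adjusted p = 0.00175), and expA3 the lowest, -1.48 ± 0.31 (edgeR adjusted p = 0.000993). The part of these markers in the values below was not tested. The quiescent centre marker wox5B had 20 counts over the EU nascent and 28 over the nuclear libraries, and rtcs had none. Leaf genes for photosynthesis were at or near 0, with 13 of 14 leaf and shoot markers summing to 1.22 to 2.12 CPM in EU nascent and 0.614 to 2.49 CPM in nuclear. The other one, Ppdk1, which also serves non-photosynthetic tissue, had 616 ± 23.1 CPM in EU nascent and 476 ± 24.3 CPM in nuclear libraries (SD, n = 5). In whole tips, fewer cells of a type and less RNA per cell cannot be told apart.

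The ysl12 transcript had a larger share of captured RNA than of total nuclear RNA at every replicate number. EU nascent libraries with numbers 1 to 5 had 101, 109, 107, 105 and 90.4 CPM, from 248, 660, 276, 636 and 383 counts. Nuclear libraries with the same numbers had 32.5, 45.0, 34.2, 39.8 and 31.7 CPM, from 40, 220, 55, 761 and 127 counts. Every EU nascent library was above every nuclear one, and the lowest EU nascent level was 2.01 times the highest nuclear level. Means were 102 ± 7.32 CPM in EU nascent and 36.6 ± 5.65 CPM in nuclear libraries (SD, n = 5 each). The fitted log2 fold change of EU nascent over nuclear was 1.44 ± 0.10 (SE), a fold of 2.71, and 74th from the top of the 21048 tested genes. Groups that do not overlap with EU nascent above were found for 11.2% of tested genes, and nothing is read from the place of ysl12 among them since this difference chose it.

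HAK21 was a low-count gene with a similar direction and a wider spread. EU nascent libraries with numbers 1 to 5 had 8.93, 15.5, 9.29, 18.7 and 11.1 CPM, from 22, 94, 24, 113 and 47 counts. Nuclear libraries had 1.63, 6.76, 1.87, 8.15 and 5.24 CPM, from 2, 33, 3, 156 and 21 counts. The groups did not overlap, but the lowest EU nascent level was only 1.10 times the highest nuclear level. Means were 12.7 ± 4.25 CPM in EU nascent and 4.73 ± 2.91 CPM in nuclear libraries (SD, n = 5 each). The fitted log2 fold change was 1.11 ± 0.27 (SE), a fold of 2.15, and ranked 253rd. The mean of the log2 ratios within replicate numbers was higher, at 1.65 ± 0.68 (SD, n = 5), with numbers 1 and 3 resting on 2 and 3 nuclear counts. For ysl12 this mean was 1.49 ± 0.16, so which gene had the larger difference depended on the measure. The filter on low counts asked for about 2.42 CPM in at least 5 libraries, which HAK21 reached in 5 of 5 EU nascent and 3 of 5 nuclear libraries, so it entered the test through the group in which it was high. Nuclear libraries 1 and 3, with 2 and 3 counts, lay at or below a floor of 3 counts, which equals 2.44 and 1.87 CPM in them. The 95% Poisson intervals of these levels were 0.197 to 5.88 CPM and 0.385 to 5.45 CPM. These and all other counting intervals cover counting error only.

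**Figure D1:**
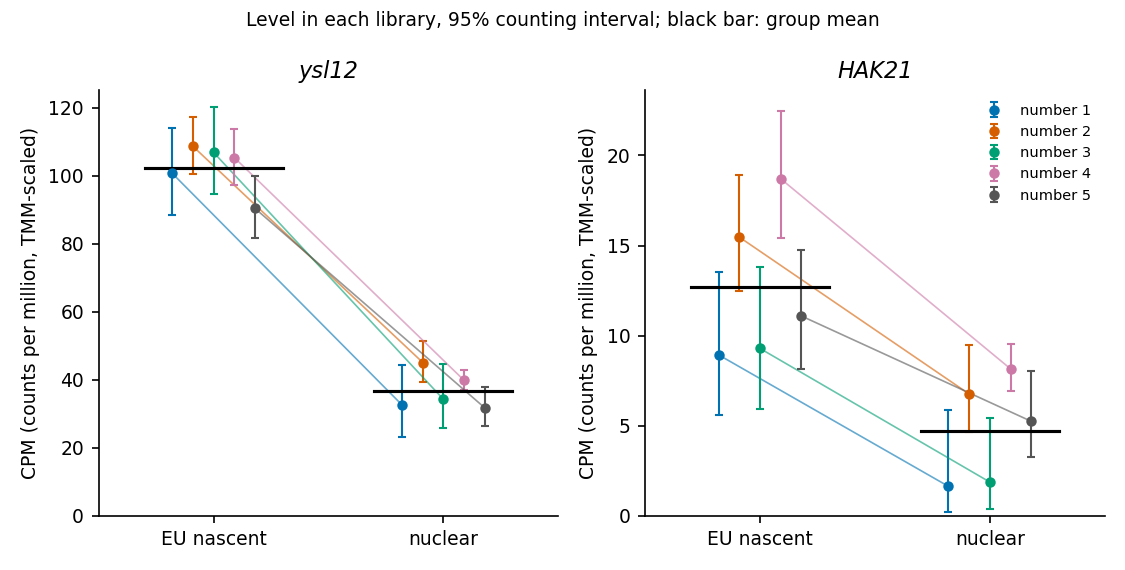
Level of ysl12 (left) and HAK21 (right) in each library, in CPM, with EU nascent libraries at left and nuclear libraries at right of each panel. Points are libraries with 95% Poisson intervals, thin lines join equal replicate numbers and black bars are group means, at 102 and 36.6 CPM for ysl12 and 12.7 and 4.73 CPM for HAK21; no EU nascent point of a gene lies below any of its nuclear points.

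The biological coefficient of variation fitted by edgeR, which leaves counting error out, was 9.29% for ysl12 and 25.0% for HAK21, beside a median of 10.3% over tested genes. The spread of ysl12 lay near that of the median gene, and that of HAK21 above it. Over all libraries of a group, ysl12 rested on 2203 counts in EU nascent and 1203 in nuclear libraries, and HAK21 on 300 in EU nascent and 215 in nuclear libraries. No count of either gene was fractional in any library, where a fraction was taken to mark reads divided between genes.

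Within replicate numbers, EU nascent exceeded nuclear in 5 of 5 pairs at both genes. This follows from groups that do not overlap. For ysl12 the ratio of EU nascent to nuclear CPM was 3.09, 2.41, 3.12, 2.65 and 2.85 in numbers 1 to 5. These 5 ratios lay close together, and their counting intervals (95%, exact) all overlapped, from 2.21 to 4.44 in number 1 to 2.33 to 3.51 in number 5. For HAK21 the ratios were 5.49, 2.29, 4.98, 2.29 and 2.12. Numbers 1 and 3 gave the highest ratios of HAK21, but on 2 and 3 nuclear counts, and their counting intervals of 1.35 to 48.1 and 1.51 to 25.8 included the ratios of the other numbers. Numbers 2, 4 and 5 gave ratios within 2.12 to 2.29, with intervals of 1.53 to 3.52, 1.79 to 2.94 and 1.24 to 3.73.

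HAK21 varied together in libraries that share a number, which the choice of the gene did not use. From lowest to highest, its level ran through numbers 1, 3, 5, 2 and 4 in EU nascent and again through 1, 3, 5, 2 and 4 in nuclear libraries. An identical order in both groups was found for 480 of 21048 tested genes, or 2.28%. Of the 15 tested HAK family genes, HAK21 was the only one with an identical order in both groups, which says little at a share of 2.28%. Its place in nuclear libraries 1 and 3 rested on 2 and 3 counts. Numbers 1 and 3 were the lowest pair in both groups for 643 tested genes (3.05%). Library size moved with this order. Totals ran through 1, 3, 5, 4 and 2 in EU nascent and 1, 3, 5, 2 and 4 in nuclear libraries. A nuclear order equal to that of nuclear totals, as for HAK21, was found for 267 tested genes (1.27%). The part of depth in the order was not tested. With every library thinned to the total of the smallest, an alternative added after the data were seen, HAK21 had 10, 26, 14, 24 and 9 counts in EU nascent and 2, 7, 2, 6 and 11 counts in nuclear libraries 1 to 5. Thinning was 1 random draw, and at counts this low another draw could give another order. In this draw number 5 was the lowest in EU nascent and the highest in nuclear libraries, so the shared order was not kept. Numbers 2 and 4 still stood above 1 and 3 in both groups. Whether the order holds at equal depth is not decided by this draw.

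For ysl12 the same number, 5, was lowest and the same number, 2, was highest in both groups, as for 2247 tested genes (10.7%). Its order was 5, 1, 4, 3, 2 in EU nascent and 5, 1, 3, 4, 2 in nuclear libraries. The deviations of ysl12 from its group mean stayed between -0.18 and 0.09 in EU nascent and between -0.19 and 0.31 in nuclear libraries on the log2 CPM scale. Those of HAK21 reached from -0.43 to 0.60 in EU nascent and from -1.11 to 0.97 in nuclear libraries. Both sets used a prior count of 2, which shrinks low counts toward each other.

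**Figure D2:**
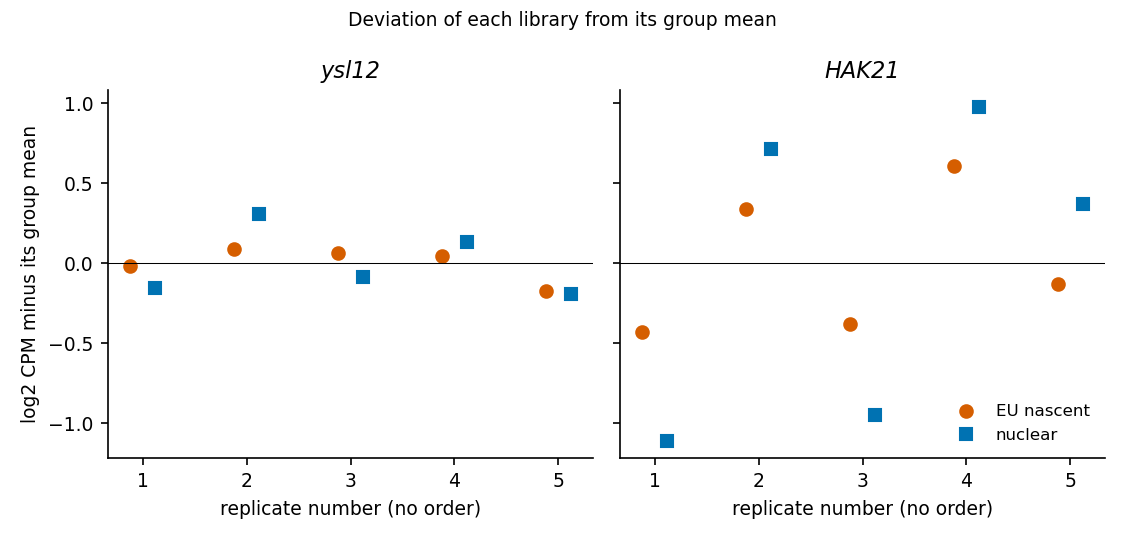
Deviation of log2 CPM (prior count of 2) from the group mean at each replicate number for ysl12 (left) and HAK21 (right), with circles for EU nascent and squares for nuclear libraries. HAK21 lies below its group mean at numbers 1 and 3 and above it at numbers 2 and 4 in both groups, while ysl12 stays within 0.31 of 0.

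The ratio of ysl12 counts to HAK21 counts within a library needs no scaling between libraries. It was 11.3, 7.02, 11.5, 5.63 and 8.15 in EU nascent libraries 1 to 5, and 20.0, 6.67, 18.3, 4.88 and 6.05 in nuclear libraries. On the log2 scale the ratio averaged 3.07 ± 0.44 in EU nascent and 3.23 ± 0.96 in nuclear libraries (SD, n = 5 each), a difference smaller than either spread. The medians stood the other way round, at 3.03 in EU nascent and 2.74 in nuclear libraries. Numbers 1 and 3 had the highest ratios in both groups, and in nuclear libraries these rested on 2 and 3 counts of HAK21. The ratio is not a comparison of levels between the genes, since counts were not divided by length.

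Among the 4 genes of the count table with a YSL name, ysl12 was the only one with enough counts to be tested. The gene next to ysl12 in the reference gene order is ysl11 (GeneID 100526748), of the same family, which had 39 counts over the 5 EU nascent libraries and 47 over the 5 nuclear ones. Its level was 0.774 to 3.65 CPM in EU nascent and 0.614 to 2.74 CPM in nuclear libraries, so the groups overlapped. One library gave ysl11 a fractional count. The phytosiderophore transporter gene ys1 (GeneID 541800) had 4 counts in EU nascent and 0 of 32922476 in nuclear libraries, which allows up to 0.0911 counts per 1000000. No library held a count for ysl17 (GeneID 100280197). The gene on the other side of ysl12, LOC100285839, had no count either.

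Farther along, 2 other genes near ysl12 were tested. LOC100192763, a transcribed pseudogene 3 places away on the side of ysl11, had 70.1 ± 9.48 CPM in EU nascent and 104 ± 13.4 CPM in nuclear libraries (SD, n = 5), with a log2 fold change of -0.57 ± 0.10 (SE; edgeR adjusted p = 0.000208). The protein-coding gene LOC100280963, 4 places away, had 22.0 ± 3.33 CPM in EU nascent and 22.3 ± 1.30 CPM in nuclear libraries, with a log2 fold change of -0.06 ± 0.12 (edgeR adjusted p = 0.742). None of the 4 nearest genes on each side overlapped ysl12 in the reference table.

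HAK21 lies in a stretch that holds other HAK genes, which were almost silent. HAK16b, 2 places away, had no count in any library, and HAK27, 4 places away, had 5 counts over the EU nascent and 7 over the nuclear libraries. The nearest genes, LOC103643617 and LOC103643619, had 2 and 0 counts in EU nascent and 1 and 0 in nuclear libraries. The microRNA gene MIR171l, 2 places away on the other side, had 6 counts in EU nascent and 13 in nuclear libraries. None of the genes within 4 places overlapped HAK21. Genes beyond the nearest on each side were chosen after their values were seen.

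**Figure D3:**
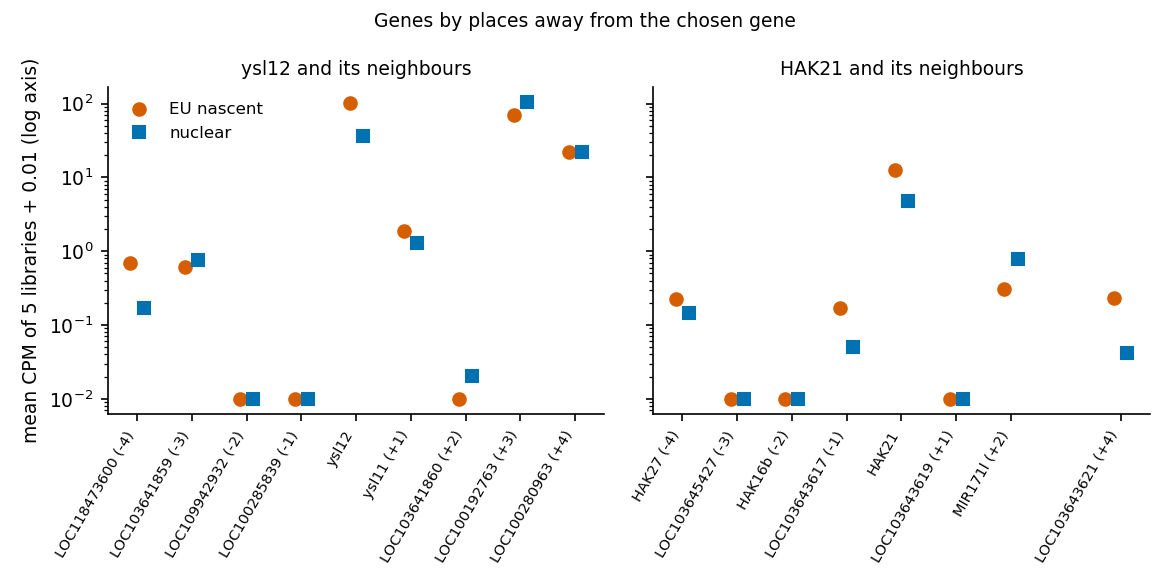
Mean CPM over 5 libraries plus 0.01, on a log axis, for ysl12 (left), HAK21 (right) and the genes up to 4 places away in the reference gene order, with circles for EU nascent and squares for nuclear libraries. Genes with no count sit at 0.01; HAK21 has 12.7 CPM in EU nascent and 4.73 CPM in nuclear libraries and its neighbours lie below 1 CPM, while LOC100192763 near ysl12 has 70.1 CPM in EU nascent and 104 CPM in nuclear libraries. Levels are not divided by gene length.

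Among the other potassium transporter genes of the HAK family, HAK23, HAK9, HAK7, HAK18 and HAK2 were higher in captured RNA and HAK25 was lower. Of 24 named family genes, 15 passed the filter. Leaving HAK21 aside, 5 of the other 14 tested genes were higher in EU nascent, 1 was lower and 8 did not pass edgeR's quasi-likelihood test (Benjamini-Hochberg adjusted over all tested genes). The 6 called genes, 42.9% of the 14, stand beside 40.9% called over all tested genes, where 19.8% were higher and 21.1% lower, so their share lies near that of all genes. The median log2 fold change of the 14 was 0.16, beside 0.02 over all tested genes. The range of the 14, -0.58 to 0.72, lay below the values of HAK21 and ysl12, which were chosen by this contrast.

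HAK23 had the highest fold change of the other family genes. It reached 40.2 to 54.3 CPM in EU nascent and 25.8 to 35.0 CPM in nuclear libraries, with no overlap, and rose by 0.72 ± 0.10 on the log2 scale (SE, n = 5 per group; edgeR adjusted p = 2.52e-05). HAK9 rose by 0.52 ± 0.09 (edgeR adjusted p = 0.000182), at 78.3 ± 5.51 CPM in EU nascent and 53.1 ± 7.23 CPM in nuclear libraries (SD). HAK7 rose by 0.45 ± 0.11 (adjusted p = 0.00421 by edgeR), at 21.4 ± 1.35 CPM in EU nascent and 15.4 ± 1.08 CPM in nuclear libraries (SD). These 3 genes kept their calls in all 19 alternative settings.

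HAK18 and HAK2 passed the test but did not keep their calls in every alternative setting. HAK18 rose by 0.40 ± 0.10 (edgeR adjusted p = 0.00329), at 63.1 ± 4.99 CPM in EU nascent and 49.5 ± 7.74 CPM in nuclear libraries (SD, n = 5), with groups that overlapped. Its call was kept in 18 of 19 alternatives. In thinned libraries its value was 0.22 and the call was lost (edgeR adjusted p = 0.224). HAK2 rose by 0.24 ± 0.09 (edgeR adjusted p = 0.0455) and was called in 10 of 19 alternative settings. It lost its call with DESeq2 (adjusted p = 0.0618), with no filter on low counts (edgeR adjusted p = 0.0863), without numbers 1 and 3 (0.0614) and in thinned libraries (0.383). It also lost it without EU nascent library 2 (edgeR adjusted p = 0.127), 4 (0.0773), nuclear library 1 (0.0782), 2 (0.0654) or 5 (0.133), and its adjusted p over the 19 alternatives ran from 0.00161 to 0.383.

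HAK25 went the other way. It had 71.8 to 86.4 CPM in EU nascent and 113 to 134 CPM in nuclear libraries, with no overlap, and fell by 0.58 ± 0.08 on the log2 scale (SE, n = 5 per group; edgeR adjusted p = 2.04e-05), a call kept in all 19 alternative settings. It was the only tested HAK gene called lower in captured RNA. Besides HAK21, EU nascent lay above nuclear without overlap for 4 of 14 genes, which were HAK23, HAK9, HAK7 and HAK2, beside 11.2% of all tested genes. With HAK25, 5 of 14 had groups that did not overlap in either direction, beside 24.8% of all tested genes.

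The 8 HAK genes that did not pass had log2 fold changes of -0.04 to 0.25. HAK15, at 306 ± 16.1 CPM in EU nascent and 311 ± 23.6 CPM in nuclear libraries (SD, n = 5), had -0.02 ± 0.08. HAK24, another low-count gene, had 5.87 ± 2.68 CPM in EU nascent and 5.41 ± 2.19 CPM in nuclear libraries, with 0.25 ± 0.30, and its groups overlapped. HAK8 had -0.04 ± 0.12, HAK10 -0.04 ± 0.11, HAK11 0.04 ± 0.11, HAK14 0.06 ± 0.09, HAK1 0.15 ± 0.12 and HAK12 0.17 ± 0.08. With library totals alone as the scaling, HAK1, HAK12 and HAK14 also passed as higher, so 8 of 14 were higher and 1 was lower. Under that scaling 35.1% of all tested genes were called higher and 13.1% lower, and the median of all genes moved to 0.19. The high-affinity potassium uptake gene HAK5 was not tested, with 7 counts in EU nascent and 24 in nuclear libraries. The highest sums among the 9 untested HAK genes were 13 counts in EU nascent, for HAK19, and 24 in nuclear libraries, for HAK5, and 3 had no count at all.

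**Figure D4:**
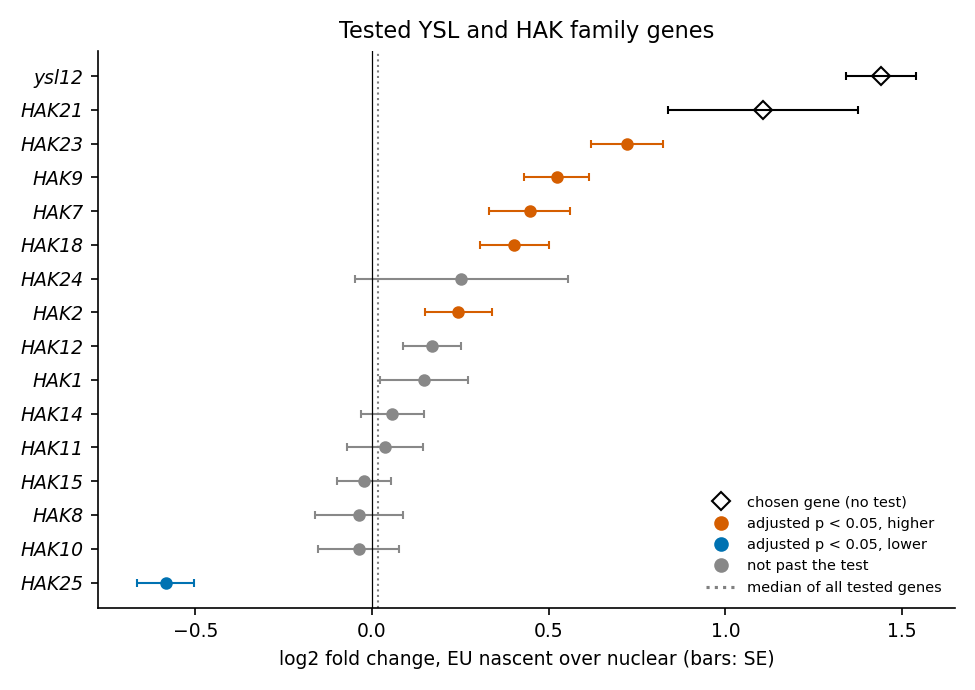
Log2 fold change of EU nascent over nuclear, with SE bars, for the 15 tested HAK genes and ysl12. Open diamonds are the chosen genes, filled circles are the other family genes coloured by edgeR call, and the dotted line is the median of all tested genes at 0.02; the other genes run from HAK25 at -0.58 to HAK23 at 0.72, below HAK21 at 1.11 and ysl12 at 1.44.

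Of 5 genes matched by name to the synthesis or release of metal chelators, 2 had enough counts to be tested. The same held for 2 of 4 other metal transporter and ferritin genes. Genes of these kinds without such a name were not looked at. Nicotianamine synthase genes, which make the chelator, had no count for nas1, and for nas2 none in EU nascent and 1 in nuclear libraries. YS3, the phytosiderophore efflux transporter, had no count. The 2 tested genes of phytosiderophore synthesis did not pass the test. DMAS1, whose product makes deoxymugineic acid, had 12.4 ± 2.67 CPM in EU nascent and 15.8 ± 2.23 CPM in nuclear libraries (SD, n = 5), with a log2 fold change of -0.38 ± 0.16 (SE; edgeR adjusted p = 0.0592), and was called lower in 4 of 19 alternatives. The aminotransferase gene naat1 had 9.92 ± 1.97 CPM in EU nascent and 8.97 ± 2.80 CPM in nuclear libraries, with 0.15 ± 0.20 (edgeR adjusted p = 0.565).

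Ferritin genes, whose products store iron, went opposite ways. The gene fer1 fell by 0.36 ± 0.10 (SE; edgeR adjusted p = 0.00666), at 65.4 ± 4.51 CPM in EU nascent and 82.3 ± 14.0 CPM in nuclear libraries (SD, n = 5). It was -0.19 with library totals alone and then did not pass (edgeR adjusted p = 0.122), and its call was kept in 17 of 19 alternatives. The gene fer2 rose by 0.40 ± 0.16 (edgeR adjusted p = 0.0486), at 10.2 ± 0.63 CPM in EU nascent and 7.86 ± 0.97 CPM in nuclear libraries, and kept its call in 6 of 19 alternatives. The metal transporter genes ZIP4 and Nramp1 were untested, with 0 and 3 counts in EU nascent and 2 and 6 in nuclear libraries.

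Of 9 other potassium and cation transport genes, 6 were tested and 1 rose, beside 19.8% of all tested genes called higher. NHX3, of the family of cation-proton exchangers, had 75.2 ± 10.4 CPM in EU nascent and 45.2 ± 5.97 CPM in nuclear libraries (SD, n = 5). It rose by 0.70 ± 0.10 (SE; edgeR adjusted p = 4.14e-05), a call kept in all 19 alternatives. Those that did not pass included KEA2 at 0.11 ± 0.07, the potassium channel genes kch5, also listed as ZMK1, at 0.15 ± 0.20 and ZMK2 at -0.51 ± 0.25, and NHX5 at -0.23 ± 0.30. With library totals alone KEA2 also passed, at 0.28 (edgeR adjusted p = 0.0044), and ZMK2 was called in 2 of 18 alternatives. ZMK2 had fractional counts in 8 of 10 libraries, so its level was taken as uncertain. The sodium transporter gene HKT1 had no count in any library, and kch4 had 3 counts in EU nascent and 28 in nuclear libraries.

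The named genes most like each transporter were taken by Pearson r of log2 CPM over all 10 libraries, among 1716 genes with a name and a mean of at least 5 CPM. These r are ranks of likeness without a test, since the libraries share the group difference and the scaling. For ysl12 they were RTE2 (0.975), of a borate transporter family, MUB3 (0.974), DIP1 (0.974) and the auxin response factor genes ARF16 and ARF10 (0.972 each). Their log2 fold changes were 0.64 ± 0.08 for RTE2, 0.77 ± 0.09 for MUB3, 1.20 ± 0.10 for DIP1, 0.41 ± 0.08 for ARF16 and 0.30 ± 0.07 for ARF10 (SE, n = 5 per group), so genes with this shape differed in size. For HAK21 they were pck2 (0.957), AMA1 (0.956), the SBP-box gene sbp18 (0.956), SnRK2.6 (0.954), a kinase gene named after an abscisic acid signalling kinase of Arabidopsis, and GBF1 (0.941), of the G-box binding factors. Their log2 fold changes were 0.46 ± 0.18, 0.44 ± 0.11, 0.22 ± 0.10, 0.58 ± 0.15 and 1.11 ± 0.16 in that order. The r between ysl12 and HAK21 themselves was 0.812, so neither was among the 5 genes listed for the other.

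Likeness in deviations from the group means, which leaves the group difference out, gave partly other genes. For ysl12 they were a myosin gene (0.903), ARF16 again (0.898) and mha4 (0.892), of the plasma membrane proton pumps that energise uptake of nutrients. The pump gene mha4 had 296 ± 30.3 CPM in EU nascent and 278 ± 35.5 CPM in nuclear libraries (SD, n = 5). For HAK21 they were Coilin (0.948), of the Cajal body scaffold, and again sbp18 (0.940) and pck2 (0.937). In pck2, EU nascent libraries 1 and 3 had 30.0 and 26.3 CPM beside 32.4 to 41.9 CPM in the others, and nuclear libraries 1 and 3 had 14.6 and 11.8 CPM beside 23.0 to 32.0 CPM. This likeness at numbers 1 and 3 follows from the choice of pck2 by its r with HAK21. Coilin had fractional counts in 3 libraries. In deviations, r between ysl12 and HAK21 was 0.585.

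Both fold changes kept their direction in every setting run. The groups did not overlap and this contrast chose the genes, so leaving libraries out could hardly have reversed it. Over 19 alternatives the log2 fold change of ysl12 ran from 1.37 to 1.61 and that of HAK21 from 0.93 to 1.46. The lowest value of HAK21 came without EU nascent library 4 and the highest without nuclear library 4, the libraries in which it was highest. Without numbers 1 and 3 in both groups, an alternative added after the data were seen, ysl12 had 1.37 ± 0.11 and HAK21 1.09 ± 0.20 (SE, n = 3 per group).

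**Figure D5:**
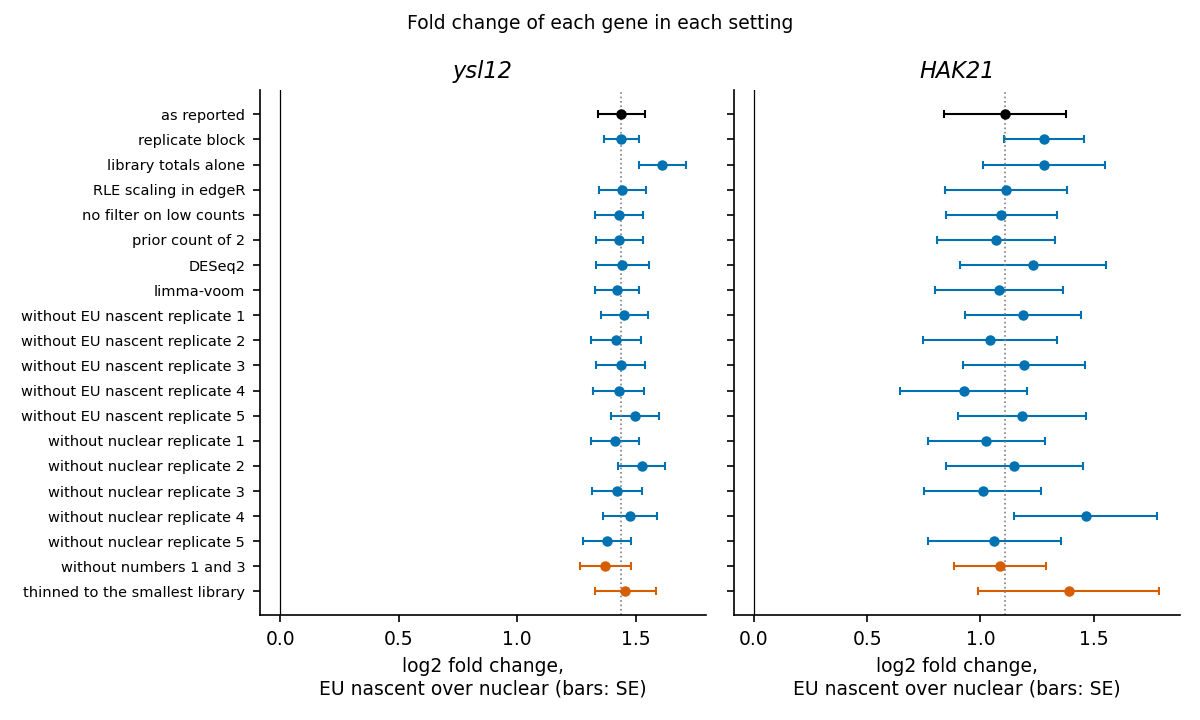
Log2 fold change of EU nascent over nuclear with SE bars for ysl12 (left) and HAK21 (right) as reported (black), with other settings fixed with the design (blue) and with settings added after the data were seen (orange). Values run from 1.37 to 1.61 for ysl12 and from 0.93 to 1.46 for HAK21, and the bars of HAK21 are wider throughout.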

How the data were processed

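RNA abundance per gene was measured in 5 EU nascent and 5 nuclear libraries. Groups and replicate numbers were taken from the sample titles, which call the replicates biological. The values deposited by the authors are expected counts, which estimate the reads of each gene and were not normalized. The submitters' processing notes list HTSeq, UMI-tools, STAR 2.7.10b and Trimmomatic (0.36 and 0.39) among other tools, with no role or order; the library kit was directional, per the labels' protocols. Genome build, annotation and strand setting of the counting are not given in the sources used here, so no coordinates are printed and overlapping or antisense genes would be uncertain. Of the values in a library, 91.4% to 97.7% were whole within 1e-06, and counts were rounded before testing. Of the identifiers, 99.9% matched a RefSeq gene table of Zm-B73-REFERENCE-NAM-5.0, used for names and neighbours. No sequences were used.

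The test was edgeR 4.0.16 (R 4.3.3; filterByExpr, TMM, quasi-likelihood F test, Benjamini-Hochberg adjustment, threshold 0.05) across all genes, checked on simulated data, with no replicate block. SE is the absolute log2 fold change divided by the square root of F. Alternatives used DESeq2 1.42.0, limma 3.58.1 (voom), another filter, 2 other scalings and subsets of the libraries. A further alternative, a prior count of 2 in the fit, changes the fold change but no adjusted p. Calls could not change in it, though the tallies of kept calls include it. The genes and lists were chosen with earlier results of these data known. Lists were matched on symbols and synonyms; plt1 and plt2, which are lipid transfer protein names here, were left out of the root markers. Named genes were the chosen ones, tested members of their families, the most raised and most lowered called gene of each other list, the nearest neighbours and the 5 and 3 genes most alike. Other names, which include untested family members, were chosen after their values were seen.

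Libraries with the same number deviated together (r across genes 0.158 to 0.217, against at most 0.113 for other numbers), so the numbers were taken to pair the samples. The labels do not say what is shared. Python 3.11.15 with scipy 1.17.1 gave the intervals.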

Additional observations from a re-analysis of the deposited data

Results flagged for a closer look

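Among 32 genes checked, in 64 groups of 5 libraries, 4 groups held a library that stood apart by Dixon's test, and chance gives about 1 in 20. None of the 4 was at ysl12 or HAK21. HAK11 had 50.0 CPM in EU nascent library 4, where the next highest had 40.6, and without that library its log2 fold change was -0.05 ± 0.11 (SE). HAK1 had 18.0 CPM in nuclear library 3, where the next lowest had 25.2, and without it the value was 0.09 ± 0.12. HAK7 had 19.1 CPM in EU nascent library 1, where the next lowest had 21.7, and without it the value was 0.49 ± 0.12. HAK2 had 52.2 CPM in EU nascent library 2, where the next highest had 47.5, and without it the value was 0.21 ± 0.10 and did not pass edgeR's test (adjusted p = 0.127).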

How the results depend on the processing

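With the replicate number as a block, the pairing gave log2 fold changes of 1.44 ± 0.07 for ysl12 and 1.28 ± 0.18 for HAK21 (SE), 6 called HAK genes besides HAK21 and 10446 called genes in all, and it changed no call among the HAK genes. With library totals alone, ysl12 had 1.61 against 1.44, where the SD of its log2 CPM was 0.11 in EU nascent and 0.21 in nuclear libraries, the median of all genes moved to 0.19, higher genes made up 72.8% of all called genes against 48.4%, and 2 other potassium transport genes were called as higher in place of 1. Leaving out 1 library at a time gave 1.38 to 1.53 for ysl12, 0.93 to 1.46 for HAK21, 5 to 6 called HAK genes besides HAK21, 0 called YSL genes besides ysl12 (none was tested), 7304 to 9269 called genes in all, and mean log2 ratios of ysl12 to HAK21 counts of 2.96 to 3.21 in EU nascent and 2.95 to 3.46 in nuclear libraries. With no filter on low counts, 1 YSL gene besides ysl12 was called, ys1, on 4 counts in EU nascent and 0 in nuclear libraries. In thinned libraries 5250 of 17315 tested genes were called, against 8602 of 21048 as reported, with fewer counts behind each. Nuclear libraries 1 and 3 held 2 and 3 counts of HAK21, and without numbers 1 and 3 its value was 1.09, against 1.11. P-values rest on the spread between these libraries.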
